A study of Mus musculus with 12 samples.

Results

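The cytosolic ribosomal protein genes were taken as the autosomal protein-coding mouse genes whose symbol starts with Rpl or Rps followed by a digit, together with Rplp0, Rplp1, Rplp2 and Rpsa, leaving out the Rps6k kinases. The rule took in 87 genes, of which 83 had a deposited H3K27ac interval overlapping the gene or within 2000 bp of it. Those genes held 130 of the 166517 intervals called with SEACR, a peak caller made for low-background chromatin profiles, and 1 interval was shared by 2 of the genes. Rpl10l, Rpl31-ps12, Rpl37rt and Rps27rt had no interval. By symbol the 87 genes comprised 40 large-subunit genes, 30 small-subunit genes, 3 stalk genes, 8 paralogues with a suffix such as l or l1, and 6 genes whose symbol marks another product or a retrocopy.

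The libraries were CUT&RUN profiles, in which a nuclease tethered by an antibody releases the DNA around a histone mark, here H3K27ac. They came from mouse intestinal organoids, crypt-derived epithelial cultures grown in Matrigel with EGF, Noggin, R-spondin and the Wnt pathway activator CHIR-99021, media components that all groups shared. Organoids labelled WT or Ptger4 KO, which lacks the prostaglandin E2 receptor EP4, received vehicle, 25 µM arachidonic acid (AA) or 50 nM PGE2, with 2 libraries in each of the 6 groups. The labels give the time as day 3 in one field and day 6 in another. The design text has the name 6,16-dimethyl PGE2, printed here as written there, where the sample labels say PGE2. The sources used here give neither strain, age, sex and the allele of the knockout nor whether replicates were separate cultures or animals, so p-values measure only the spread between these libraries.

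Ribosomal proteins assemble with ribosomal RNA into the small subunit, which decodes mRNA, and the large subunit, which forms peptide bonds. The acidic stalk, built on Rplp0 with Rplp1 and Rplp2, recruits the elongation factors. These genes are transcribed strongly in most cells, and their mRNAs typically begin with a 5′ terminal oligopyrimidine (TOP) tract, a C followed by a run of pyrimidines, through which mTOR signalling controls their translation. H3K27ac marks active promoters and enhancers, and in crypt epithelium ribosome production accompanies the rapid division of progenitor cells.

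Promoter sequences from RefSeq (GRCm38.p6, the same assembly as mm10) were available for 66 of the 87 genes, and 9 are shown because their intervals are described below or because they carry the TOP tract. They were chosen after the scores had been seen. Each runs 5′ to 3′ on the gene's strand from 60 bases before the annotated start to the first 15 transcribed bases, and capitals mark a TOP tract (a C followed by at least 4 pyrimidines, at the start or within 10 bases of it) or the ETS-type motif CCGGAAG.
Rps27 (small subunit, chr3:90213634-90213708, minus strand): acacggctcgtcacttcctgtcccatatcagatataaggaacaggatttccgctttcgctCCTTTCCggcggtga
Rplp2 (stalk, chr7:141447591-141447665, plus strand): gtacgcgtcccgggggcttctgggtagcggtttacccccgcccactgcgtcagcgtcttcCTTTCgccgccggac
Rps15a (small subunit, chr7:118116133-118116207, minus strand): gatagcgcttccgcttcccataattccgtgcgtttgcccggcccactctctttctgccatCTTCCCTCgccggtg
Rps12 (small subunit, chr10:23787195-23787269, minus strand): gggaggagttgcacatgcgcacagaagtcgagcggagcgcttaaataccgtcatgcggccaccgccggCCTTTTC
Rps3a1 (small subunit, chr3:86142654-86142728, minus strand): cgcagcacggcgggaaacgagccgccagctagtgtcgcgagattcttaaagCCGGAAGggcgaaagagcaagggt
Rpl37 (large subunit, chr15:5116553-5116627, plus strand): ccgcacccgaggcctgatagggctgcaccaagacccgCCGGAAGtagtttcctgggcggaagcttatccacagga
Rpl27 (large subunit, chr11:101442185-101442259, plus strand): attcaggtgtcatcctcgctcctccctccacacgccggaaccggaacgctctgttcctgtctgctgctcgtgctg
Rpsa (small subunit, chr9:120127706-120127780, plus strand): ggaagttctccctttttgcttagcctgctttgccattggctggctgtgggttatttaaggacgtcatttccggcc
Rplp0 (stalk, chr5:115559407-115559481, plus strand): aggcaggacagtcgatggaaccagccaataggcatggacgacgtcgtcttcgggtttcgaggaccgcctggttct

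In Rps27, Rplp2 and Rps15a the tract begins at the annotated start, and in Rps12 it begins a few bases after it. The windows of Rpl27, Rpsa and Rplp0 hold neither feature as searched. A TOP tract at the annotated start base was found in 15 of the 66 genes (22.7%), beside 2.70% of 16456 protein-coding genes with a promoter in the same table. Within 10 bases of the start it was found in 60.6% of the ribosomal protein genes and 35.4% of all genes. Over the full promoters, from 250 bases before the start to 50 after it and searched on both strands, CCGGAAG was present in 37.9% of the ribosomal protein genes against 13.3% of all genes. GCCATNTT, the YY1 type, was present in 19.7% against 7.47%, and GGGCGG, the SP1 type, in 57.6% against 50.2%. The E-box CACGTG (9.09% against 9.01%), TATAAA (10.6% against 15.01%) and the NRF1 type (3.03% against 1.49%) were counted in the same way. Matches of different motifs may overlap and each motif was counted alone, so these shares describe letters in the reference and not bound sites.

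Each gene was represented by the interval near it with the highest mean score, and the same was done for 16929 protein-coding genes. The score is the authors' value per interval and library on a scale whose normalization is not given in the sources used here, and the sequencing depth behind it is unknown. Of the 62 genes with both a promoter entry and an interval, 48 had a strongest interval that covered an annotated start and 14 did not, and the median interval centre was 867.5 bp downstream of the first start. Among all 83 genes, 74 strongest intervals overlapped the gene and 9 lay beyond its ends, and 28 covered the gene from end to end, the median gene length being 3230 bp. The intervals were wide, with a median of 3898 bp against 2583 bp over all genes, and 78.3% of them exceeded 3000 bp against 41.0%, a limit chosen after the widths had been seen. At 43 of the 83 genes the interval was also within reach of another protein-coding gene, so that its score belongs to both. Interval positions are printed as deposited, and whether their starts count from 0 or 1 is not stated. Ribosomal protein genes have many processed copies in the genome, and how reads that match several places were treated is not given in the sources used here.

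**Figure D1:**
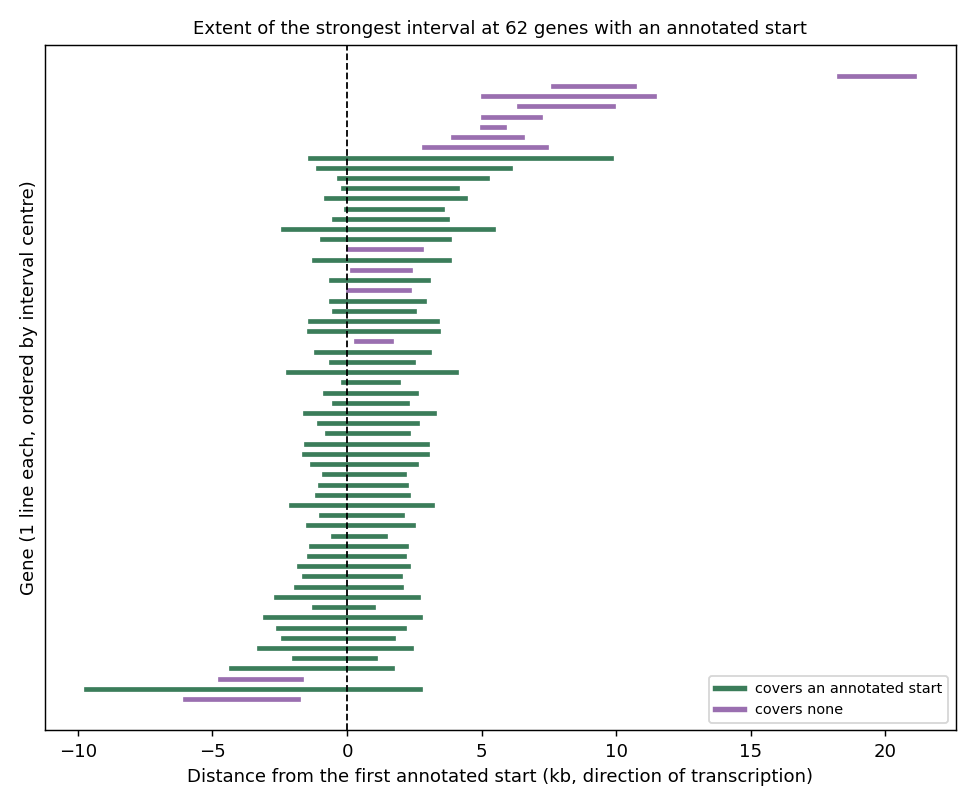
Extent of the strongest H3K27ac interval at 62 ribosomal protein genes, 1 line per gene, in kb from the first annotated transcription start in the direction of transcription. Green lines (48 genes) cover an annotated start, purple lines (14 genes) do not, and most lines extend further downstream than upstream.

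The scores of the ribosomal protein genes were near those of all genes, each represented by its strongest interval. A gene with more intervals has more to choose its highest from, and 46 of the 83 genes had only 1. All genes were not matched to them for gene length or number of intervals, which limits the medians and percentiles below. Over the 12 libraries the gene means ranged from 0.1002 to 0.228, with a median of 0.169 beside 0.160 for all genes. By rank, 56 of 83 genes stood above the all-gene median, 1 above the 90th percentile and 0 below the 10th. The large-subunit genes had a median of 0.179, the small-subunit genes 0.161, the stalk genes 0.154 and the paralogues 0.178.

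The 8 genes with the highest mean scores were Rpl32l, Rpl19, Rpl37, Rps29, Rpl27, Rpl4, Rps12 and Rps19bp1. Rpl32l (0.228 ± 0.0446, SD, n = 12) lies within the widest interval of all, 12388 bp, which is also the interval of Map7, a microtubule-associated protein. Rps19bp1, which encodes a protein that binds Rps19 and is not itself a ribosomal protein, had its strongest interval 1378 bp outside the gene and near Mief1 and Atf4. The other 6 are core subunit genes with means from 0.202 (Rps12) to 0.209 (Rpl19). The difference between neighbours in this order was smaller than their SD over libraries, which was 0.0356 for Rpl19 and 0.0736 for Rps12.

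The lowest 5 were Rpl34-ps1, Rpl26, Rplp0, Rps15 and Rpl39l. Rpl39l, a paralogue of Rpl39 known from the testis, was lowest at 0.1002 ± 0.0563 (SD, n = 12), and its 1311 bp interval covered no annotated start. Rplp0, the scaffold of the stalk, had a mean of 0.129 ± 0.0424, at the 25.6th percentile of all genes. Its interval began downstream of the annotated start shown above. Rplp1 (0.158) and Rplp2 (0.154) were nearer the centre of the distribution, as was Rpsa (0.160), a small-subunit protein also described as a laminin receptor precursor.

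**Figure D2:**
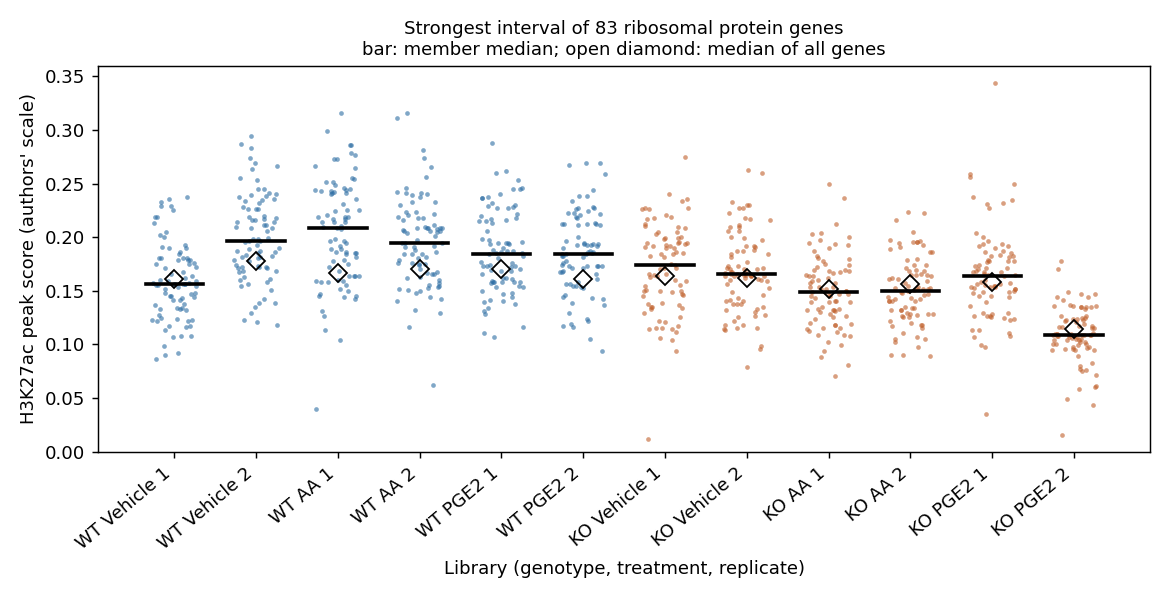
Score of the strongest interval of 83 ribosomal protein genes (points) in each of the 12 libraries, WT in blue and Ptger4 KO in orange, with the member median (bar) and the median of all genes (open diamond). Member medians lie between 0.156 and 0.209 in WT libraries and between 0.109 and 0.174 in KO libraries, with KO PGE2 replicate 2 lowest.

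Library medians of the ribosomal protein genes showed how the groups differed before any test. In WT vehicle they were 0.156 and 0.197, in WT AA 0.209 and 0.195, and in both WT PGE2 libraries 0.185. In KO vehicle they were 0.174 and 0.165, in KO AA 0.149 and 0.150, and in KO PGE2 0.164 and 0.109. The WT vehicle replicates thus differed from each other by more than any other pair except KO PGE2. As a percentage of the all-gene median of the same library, the members stood at 97.2% to 125% in WT and 95.6% to 106% in KO, and the ranges overlapped. Over all intervals the 90th percentile of the score was 2.92 to 3.05 times the 10th in KO AA and in KO PGE2 replicate 2, and 3.19 to 3.83 times in the other libraries. The part of this spread in the results below was not tested.

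The labels were checked against markers and against the deleted gene. All 11 epithelial markers had an interval, with a median mean score of 0.211, and their summed score was 2.21 to 2.78 in WT and 1.39 to 2.27 in KO libraries. Of the other cell types, 3 of 6 fibroblast markers (sums 0.235 to 0.410 in WT, 0.283 to 0.373 in KO), 5 of 6 immune markers (0.629 to 0.719 and 0.444 to 0.733) and 4 of 5 endothelial markers (0.474 to 0.783 and 0.448 to 0.620) had one. Those without one included Col1a2, Col3a1, Lum and Kdr. The sums add unequal numbers of markers and are not comparable between cell types. The median mean score was 0.107 for the fibroblast, 0.127 for the immune and 0.145 for the endothelial markers. Single markers crossed these lines: endothelial Tek had 0.203 (percentile 85.4 of all genes) and epithelial Olfm4 0.106 (percentile 13.1). The 3 intervals on Ptger4 had scores of 0.0935 to 0.253 in WT and 0.0782 to 0.300 in KO libraries and none passed, but the deleted part is not given in the sources used here, so they do not check the genotype.

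The genotype comparison was the mean over the 3 treatments of KO minus WT. Whether the libraries of a genotype came from separate cultures or animals is not given in the sources used here. Genotype therefore cannot be told apart from organoid line or library batch. Scores were lower in KO at 79 of 83 genes, including all 30 small-subunit genes, all 3 stalk genes and 39 of 40 large-subunit genes. The median log2 difference of (score + pseudocount) was -0.26 over the ribosomal protein genes and -0.12 over all genes, of which 73.1% were lower in KO. None of the 130 intervals passed an adjusted p of 0.05 in limma, where 71 of 166471 intervals passed (0.0427%). At an unadjusted p under 0.05, 39 of the 130 were lower and 1 was higher (30.8% together), beside 6.82% lower and 2.28% higher among all intervals (9.11% together). All intervals are an unlike background, here and in the comparisons below. Their median width was 1759 bp against 3237.5 bp for the 130, many lie far from genes, and their median difference was -0.05. No background matched for width or position was used. With quantile normalization 76 of 83 genes were lower with a median of -0.19, and with median centring 77 with -0.22. The all-gene medians in these settings were -0.06 and -0.08.

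Rps12, the small-subunit gene shown above with a pyrimidine tract only after the annotated start, had the smallest p. Its interval (chr10:23785512-23789585) covered the gene's start and was near no other protein-coding gene. The WT scores were 0.156 at the lowest, 0.271 at the median and 0.316 at the highest, and the KO scores 0.0979, 0.150 and 0.203. One WT vehicle library lay among the KO values, so the groups overlapped. The fitted difference was -0.59 ± 0.13 (SE) on the log2 scale, with an adjusted p of 0.0991.

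Rpl27, a large-subunit protein, came next, with an interval at chr11:101442097-101444131. Its scores ran from 0.168 through a median of 0.245 to 0.316 in WT and from 0.0991 through 0.173 to 0.236 in KO. The 2 KO PGE2 libraries were the lowest of all, at 0.0991 and 0.106, and 3 other KO libraries lay within the WT range. The difference was -0.47 ± 0.12 (limma, adjusted p = 0.178).

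Rps3a1, a small-subunit protein of the mRNA exit side, had WT scores of 0.185, 0.216 and 0.243 (lowest, median, highest) and KO scores of 0.117, 0.145 and 0.158. Every KO library was below every WT library, and its difference was -0.43 ± 0.12 (limma, adjusted p = 0.247). The same separation was seen at Rplp1, Rps19 and Rpl31, which makes 4 of 83 genes, beside 1.50% of all 16929 genes. In 0 of the 83 genes was every KO library above every WT library, beside 0.0886% of all genes. This count was chosen after the values had been seen.

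Rplp1, an acidic stalk protein, had WT scores of 0.158, 0.188 and 0.235 and KO scores of 0.0955, 0.125 and 0.149. Its difference of -0.45 ± 0.14 had an adjusted p of 0.275 in limma, and its interval also reaches Kif23, a mitotic kinesin. Rps19, the small-subunit gene most often mutated in Diamond-Blackfan anaemia, had WT scores of 0.176, 0.189 and 0.255 and KO scores of 0.109, 0.137 and 0.164. Rpl31, in the large subunit near the exit tunnel, had WT scores of 0.150, 0.179 and 0.210 and KO scores of 0.0985, 0.122 and 0.148, within an interval that also reaches Npas2 and Tbc1d8.

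The rest of the stalk and Rpsa did not separate. At Rplp0 the KO scores (0.0704 to 0.194) spanned the WT scores (0.0869 to 0.174), and the difference was -0.31 ± 0.18. Rplp2 had -0.15 ± 0.16, with the highest score of all in KO vehicle replicate 1 (0.213) and the lowest in KO PGE2 replicate 2 (0.0605). Rpsa had WT scores of 0.156 to 0.240 and KO scores of 0.0940 to 0.171, and its difference was -0.36 ± 0.13. None of these passed (limma, adjusted p 0.406 to 0.834).

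**Figure D3:**
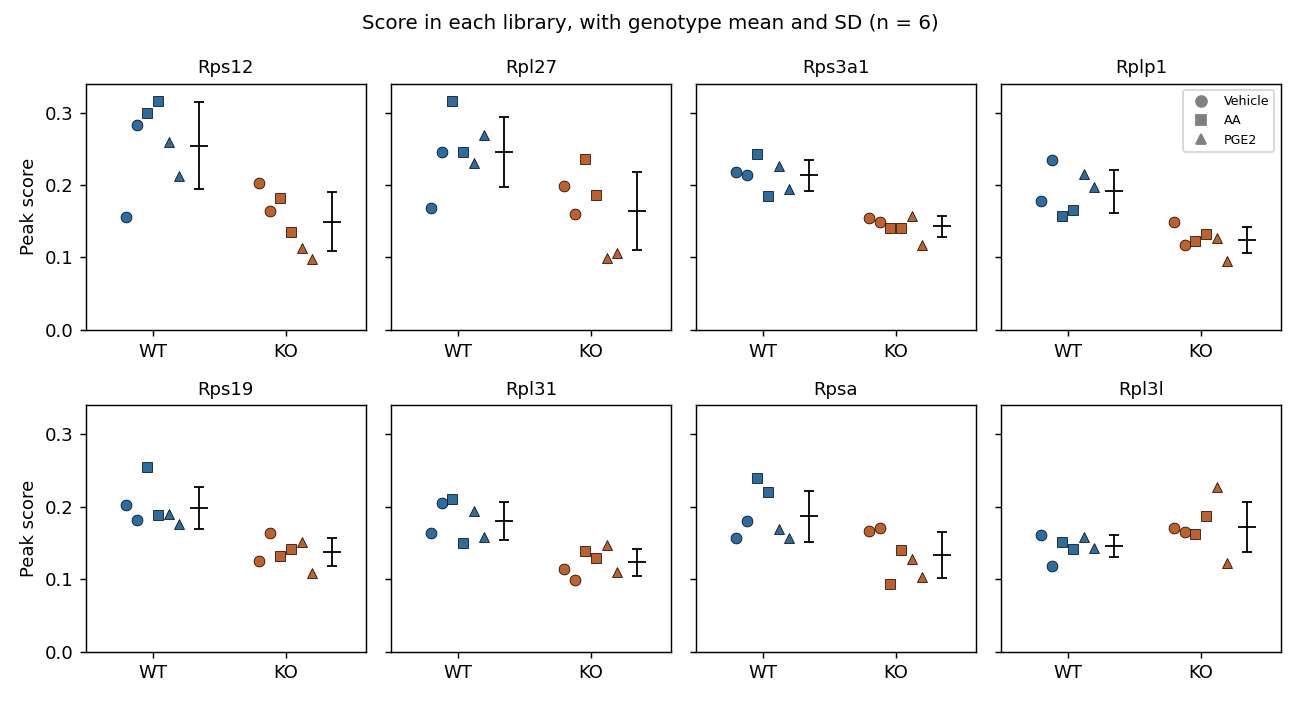
Score of the strongest interval at 8 genes in each library, WT in blue and KO in orange, with symbols for treatment and the genotype mean ± SD (n = 6 libraries) beside the points. KO libraries lie below all WT libraries at Rps3a1, Rplp1, Rps19 and Rpl31, overlap them at Rps12, Rpl27 and Rpsa, and are not lower at Rpl3l.

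The 4 genes with a positive difference were Rpl3l, Rpl22l1, Rpl34-ps1 and Rpl12. Rpl3l, the striated-muscle paralogue of Rpl3, had the largest at 0.17 ± 0.14 (0.05 without KO PGE2 replicate 1 and 0.28 without replicate 2), with WT scores of 0.118 to 0.162 and KO scores of 0.122 to 0.227. Rpl22l1, a paralogue of Rpl22, had 0.08 ± 0.15 and Rpl34-ps1 had 0.05 ± 0.16, and none of these 3 passed (limma, adjusted p 0.770 to 0.954). Leaving out WT AA replicate 2 turned Rpl22l1 to -0.09, and leaving out any of 4 single libraries (WT AA replicate 1, KO vehicle replicate 2, KO AA replicate 2 or KO PGE2 replicate 1) turned Rpl34-ps1 negative, to -0.0316 at the lowest. At Rpl12, part of the base of the stalk, the strongest interval lay 1603 bp outside the gene, and the interval over its start (chr2:32960553-32963728) had a difference of -0.36. The paralogues as a class had a median of -0.10, with 5 of 7 lower.

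**Figure D4:**
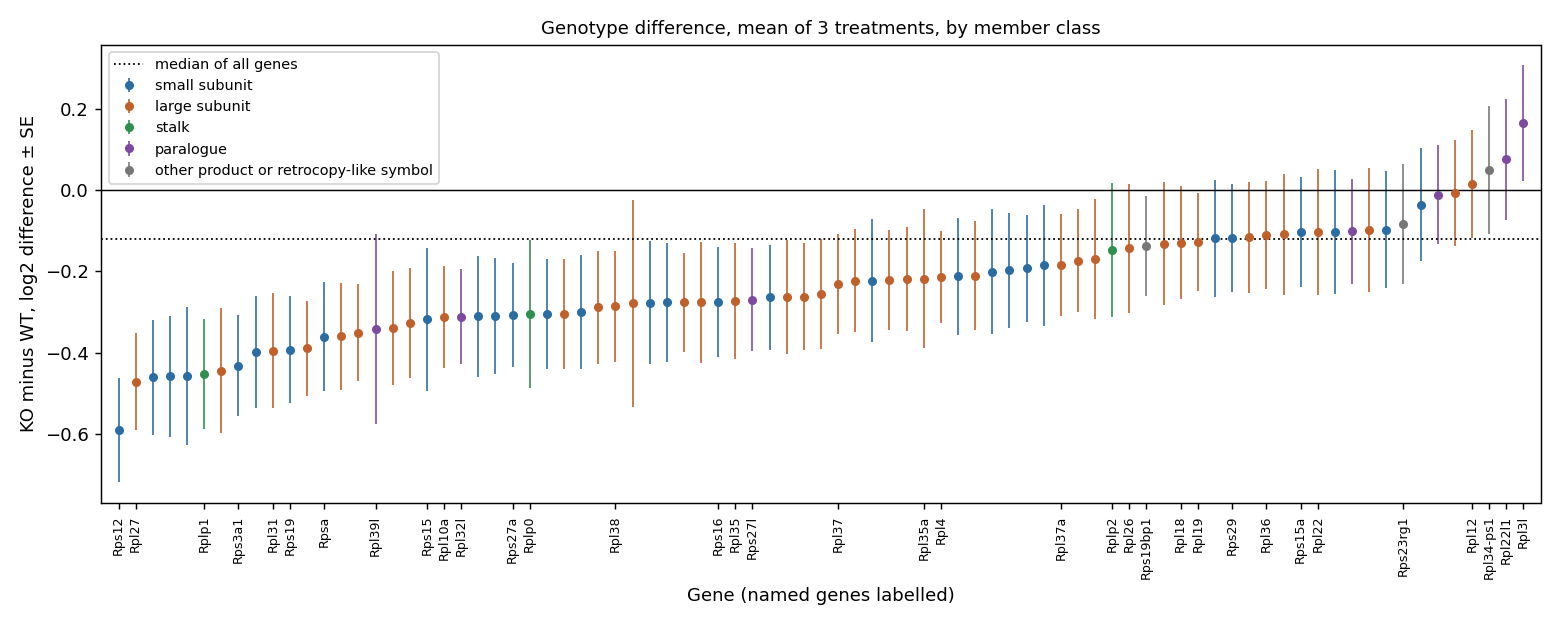
KO minus WT log2 difference of (score + pseudocount), mean of the 3 treatments, ± SE for each of 83 ribosomal protein genes, coloured by class and ordered by value, with symbols printed for the genes chosen by the naming rule or by separated libraries. The dotted line is the all-gene median of -0.12; 79 genes lie below 0, and the highest value belongs to the paralogue Rpl3l.

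Across genes, Spearman's rho of the difference was 0.07 with the mean score and -0.04 with interval width, given as descriptions since the 83 genes share the same 12 libraries and are not independent. Genes whose interval reached no other protein-coding gene had a median difference of -0.24, with 38 of 40 lower, and those whose interval did had -0.26, with 41 of 43 lower. Where the interval covered an annotated start the median was -0.23 (47 of 48 lower), and where it covered none it was -0.25 (12 of 14 lower).

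The count of intervals past the threshold depended on KO PGE2, whose replicates were unlike. Leaving out KO PGE2 replicate 1, so that replicate 2, the library with the lowest scores, stood alone for its group and was assumed to vary like the others, brought 6 of the 130 intervals past the threshold, those of Rps12, Rps27, Rpl32l, Rpl7, Rpl27 and Rps3a1 (limma, adjusted p 0.0164 to 0.0456), and 1482 intervals in all. Leaving out KO PGE2 replicate 2 left 74 of 83 genes lower, a median of -0.17 and 0 intervals past it. Without both libraries 71 of 83 genes were lower and the median was -0.18. The all-gene median was -0.07 without KO PGE2 replicate 2 and -0.07 without both. In the other direction, leaving out WT vehicle replicate 2 reduced the intervals lower at an unadjusted p under 0.05 from 39 to 24.

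In vehicle alone the differences were centred near those of all genes. The median difference was -0.06 beside -0.04 over all genes, with 51 of 83 lower, and 0 of 130 intervals passed where 1 of all intervals did (0.000601%). At an unadjusted p under 0.05 there were 5 of 130, beside 4.55%. Rpl31 (WT 0.164 and 0.205, KO 0.114 and 0.0985), Rplp1 (WT 0.178 and 0.235, KO 0.149 and 0.118) and Rps3a1 (WT 0.218 and 0.214, KO 0.155 and 0.149) had the smallest p among the lower genes, at -0.56 ± 0.25, -0.46 ± 0.24 and -0.39 ± 0.21. Each kept its 2 KO libraries below its 2 WT libraries. They were picked by p in this same comparison, which favours such separation, and the share of all genes so separated was not counted. Rps15a, a small-subunit protein, stood the other way at 0.57 ± 0.23, with WT scores of 0.124 and 0.121 and KO scores of 0.219 and 0.200, followed by Rpl22l1 (0.39 ± 0.26) and Rpl12 (0.37 ± 0.23). For Rpl12 that value is from the interval outside the gene, and the interval over its start had -0.09. The other intervals overlapping Rps15a had 0.27 and -0.19. The member median depended on WT vehicle: it was -0.21 without replicate 1 of that group and 0.05 without replicate 2.

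AA in WT organoids was compared with WT vehicle. Scores were higher with AA at 63 of 83 genes, with a median of 0.12 beside 0.01 over all genes, and 0 of 130 intervals passed (0% of all intervals). At an unadjusted p under 0.05 there were 5 of 130, near the 4.56% of all intervals. Rps27a, which encodes ubiquitin fused to a small-subunit protein, had 0.159 and 0.211 in vehicle and 0.277 and 0.311 with AA, a difference of 0.54 ± 0.22. Rpl10a, a large-subunit protein, had 0.137 and 0.183 in vehicle and 0.266 and 0.240 with AA (0.52 ± 0.22), and Rps12 had 0.156 and 0.283 against 0.299 and 0.316 (0.44 ± 0.22). In these 3 genes both AA libraries exceeded both vehicle libraries. Being picked by p in this same comparison favours such separation, and the share of all genes so separated was not counted. Rpl22 (0.229 and 0.253 against 0.160 and 0.151), Rpl39l (0.0902 and 0.158 against 0.0400 and 0.0619) and Rplp1 (-0.26 ± 0.24) stood the other way, at -0.49 ± 0.27 for Rpl22 and -0.72 ± 0.41 for Rpl39l. Rps12 was 0.10 without WT vehicle replicate 1 and 0.77 without replicate 2, Rplp1 was -0.41 and -0.11, and Rpl39l was -0.45 without replicate 2. The direction of the median rested on WT vehicle replicate 1, the lower of the pair: without it the median was -0.01, and without replicate 2 it was 0.29.

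PGE2 in WT organoids was compared with the same vehicle libraries, and the differences fell on both sides of 0. The median was 0.03 beside -0.01 over all genes, with 47 of 83 higher, 0 of 130 intervals past the threshold (0% of all), and 4 of 130 at an unadjusted p under 0.05 beside 5.80%. Rps15a was the extreme, with 0.124 and 0.121 in vehicle and 0.193 and 0.267 with PGE2, a difference of 0.67 ± 0.23 (limma, adjusted p = 0.793). Its other intervals overlapping the gene, with lower mean scores, had 0.06 and 0.22. Rps23rg1, a retrogene of Rps23, had 0.45 ± 0.26 and Rpl4, a large-subunit protein, 0.33 ± 0.20. Rpl22 (-0.47 ± 0.27), Rpl35a (-0.38 ± 0.30) and Rpl18 (-0.31 ± 0.24) had the smallest p among the lower genes. Single libraries moved all 3: Rpl22 ran from -0.82 without WT PGE2 replicate 2 to -0.12 without replicate 1, Rpl35a from -0.70 without WT PGE2 replicate 1 to -0.05 without replicate 2, and Rpl18 from -0.52 without WT vehicle replicate 1 to -0.11 without replicate 2. Rpl4 was 0.17 without WT vehicle replicate 1. Other intervals overlapping the genes, with lower mean scores, had 0.21 at Rpl22 and 0.13 at Rpl18. The strongest interval of Rpl18 covered no annotated start and also reached Dbp and Sphk2. The strongest intervals of Rps23rg1 and Rpl35a lay outside the genes, and with overlapping intervals only they gave -0.35 and 0.20. The median was -0.13 without WT vehicle replicate 1 and 0.16 without replicate 2. The WT AA and WT PGE2 comparisons share the vehicle libraries.

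In KO organoids AA went with lower scores at 67 of 83 genes, with a median of -0.16 beside -0.06 over all genes. No interval passed (0% of all), and 4 of 130 had an unadjusted p under 0.05, beside 3.74%. Rpl12 had 0.274 and 0.263 in vehicle and 0.133 and 0.162 with AA (-0.67 ± 0.23) in its interval outside the gene, and the interval over its start had -0.20. Rps15a (-0.46 ± 0.23) and Rpl4 (0.226 and 0.230 against 0.167 and 0.171, -0.34 ± 0.20) followed. The other intervals overlapping Rps15a had -0.18 and -0.12. Rps23rg1 stood higher, with 0.115 and 0.0790 in vehicle and 0.201 and 0.196 with AA (0.73 ± 0.26). This interval lies 1499 bp outside the gene, and the strongest one that overlaps it had 0.13. Also higher was Rpl38, a large-subunit protein linked to the patterning of the mouse axial skeleton (0.133 and 0.114 against 0.203 and 0.170, 0.43 ± 0.24). Rpl39l had 0.65 ± 0.41, which rested on KO vehicle replicate 1 (0.0114) and was -0.03 without it.

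PGE2 in KO organoids showed lower scores at 73 of 83 genes, with a median of -0.21, and the all-gene median was -0.20. No interval passed (0% of all), and 16 of 130 had an unadjusted p under 0.05, 13 of them lower, beside 8.68% in either direction and 6.85% lower. Rps27l, a paralogue of Rps27 induced by p53, had 0.234 and 0.223 in vehicle and 0.168 and 0.0826 with PGE2, a difference of -0.69 ± 0.22 (limma, adjusted p = 0.488). Rps16 (0.194 and 0.161 against 0.107 and 0.0775, -0.66 ± 0.24) and Rpl37a (0.227 and 0.233 against 0.168 and 0.101, -0.61 ± 0.22) followed. Without KO PGE2 replicate 2, Rps27l was -0.34 and Rpl37a -0.35. Rpl31, Rpl35 and Rpl36, all of the large subunit, had the smallest p among the higher genes at 0.18 ± 0.25, 0.12 ± 0.25 and 0.11 ± 0.23, and they were 0.03, -0.05 and -0.13 without KO PGE2 replicate 1. Another interval overlapping Rpl36, with a lower mean score, had -0.12. The member median was -0.02 without KO PGE2 replicate 2 and -0.42 without replicate 1. Median centring moved the all-gene median from -0.20 to -0.07, and the member median was then -0.08, with 57 of 83 lower. The KO AA and KO PGE2 comparisons share the KO vehicle libraries.

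**Figure D5:**
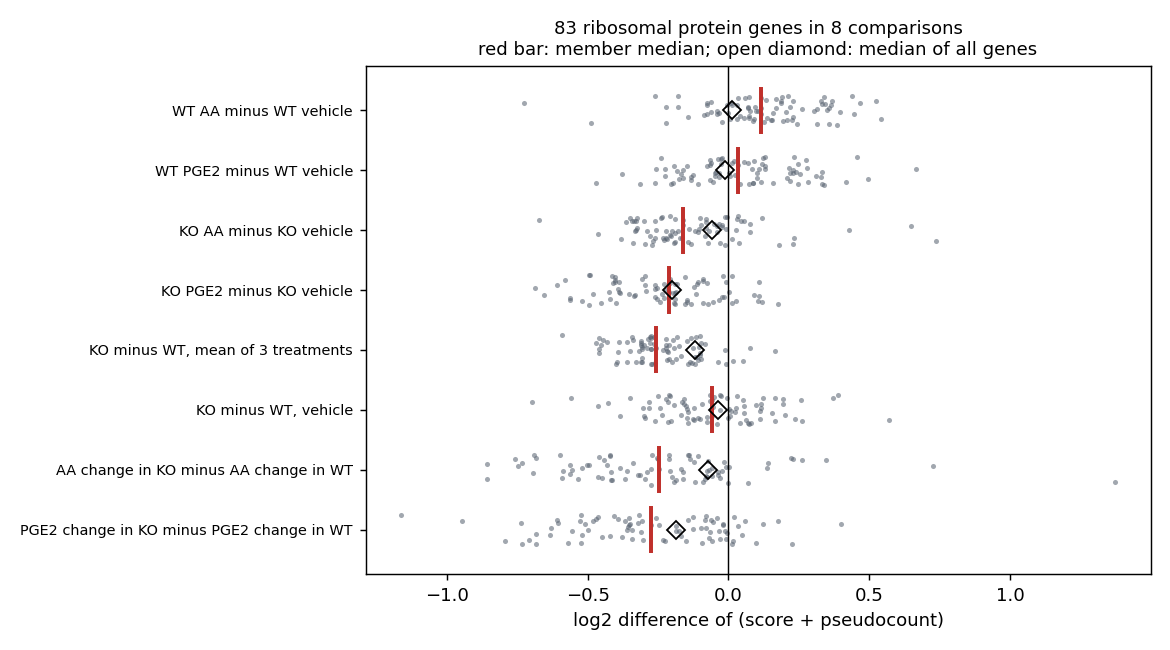
log2 difference of (score + pseudocount) for 83 ribosomal protein genes (points) in 8 comparisons, with the member median (red bar) and the all-gene median (open diamond). The member median lies above 0 for AA and PGE2 in WT and below 0 in the other 6 comparisons, furthest from the all-gene median for the AA change in KO minus that in WT.

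Whether the genotypes differed in their response was asked by the difference of the 2 treatment changes. For AA the change in KO minus that in WT had a median of -0.24 beside -0.07 over all genes, with 72 of 83 below 0. None of the 130 intervals passed (0% of all), and 10 had an unadjusted p under 0.05, beside 4.14%. Rpl10a and Rps15a both had -0.86, with SE of 0.31 and 0.33, and Rpl4 -0.69 ± 0.28. The other intervals overlapping Rps15a had -0.40 and 0.42. The positive end was Rpl39l at 1.37 ± 0.57, the gene with the lowest scores, then Rps23rg1 (0.72 ± 0.36, and 0.06 in its strongest overlapping interval) and Rpl22 (0.35 ± 0.38). Without KO vehicle replicate 1, Rpl39l had 0.70. The median ran from -0.42 without WT vehicle replicate 2 to -0.11 without replicate 1 of that group.

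For PGE2 the change in KO minus that in WT had a median of -0.28 beside -0.19 over all genes, with 72 of 83 below 0. The AA and PGE2 differences of changes share the WT and KO vehicle libraries, so their counts and extreme genes are not independent. None of the 130 intervals passed (0% of all), and 13 had an unadjusted p under 0.05, beside 6.42%. Rps15a was lowest at -1.16 ± 0.33 (limma, adjusted p = 0.641): its scores went from 0.124 and 0.121 to 0.193 and 0.267 in WT, and from 0.219 and 0.200 to 0.160 and 0.107 in KO. Rpl27 (-0.79 ± 0.29) and Rpl4 (-0.73 ± 0.28) followed. The other intervals overlapping Rps15a had -0.58 and -0.31. Rpl22 (0.40 ± 0.38), Rpl31 (0.23 ± 0.35) and Rpl36 (0.18 ± 0.32) had the smallest p among the positive genes, and without KO PGE2 replicate 1 Rpl22 was -0.10, Rpl31 0.08 and Rpl36 -0.06. Another interval overlapping Rpl36, with a lower mean score, had -0.51. The member median was -0.06 without KO PGE2 replicate 2, -0.13 without WT vehicle replicate 1 and -0.41 at its lowest.

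Other genes of protein synthesis were listed for the KO minus WT comparison, and none of them passed in any of the 8 comparisons. Mitochondrial ribosomal proteins, which serve the ribosome inside mitochondria, had a median of -0.18 with 71 of 77 genes lower in KO. Translation factors had -0.17 with 28 of 33 lower, among them Eef1a1, which carries aminoacyl-tRNA to the ribosome (-0.29 ± 0.13). Genes of ribosome assembly and ribosomal RNA synthesis had -0.19 with 39 of 46 lower. Fau and Rack1, ribosomal components with other symbols, had -0.20 and -0.23. Each of these list medians lay between the all-gene value of -0.12 and the cytosolic ribosomal protein value of -0.26, and the differences between lists were not tested. The 11 epithelial markers had a median of -0.29 with 10 lower, the 3 fibroblast markers 0.08 with 1 lower, the 5 immune markers -0.01 with 3 lower and the 4 endothelial markers -0.13 with 3 lower. The part of cell type composition in the ribosomal protein result was not tested, and fewer cells bearing the mark and less of the mark per cell cannot be told apart in bulk profiles.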

How the data were processed

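H3K27ac was profiled by CUT&RUN in 12 libraries. Intervals came from SEACR and MACS2 on mm10, per the submitters' processing notes. These notes, labels and headers name no aligner, settings or scaling of the score. The deposited table gives 1 signal value per interval and library, and its depth is unknown. Genes were taken from RefSeq (GRCm38.p6). The 87 member genes, the gene lists and the counts were chosen with earlier results of these data known.

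Scores were taken as log2(score + 0.0579), the pseudocount being the 10th percentile of non-zero scores, which understates the change of low intervals. The 166471 of 166517 SEACR intervals above it in at least 2 libraries, all 130 member intervals included, were fitted in limma 3.58.1 (R 4.3.3; trended eBayes, 6 residual and 20.1 prior degrees of freedom) as 6 groups of 2 libraries sharing 1 estimate of the spread. Tests were two-sided, with p-values Benjamini-Hochberg adjusted over all intervals and a threshold of 0.05. Named genes were Rplp0, Rplp1, Rplp2, Rpsa, the 8 highest and 5 lowest by mean score, and in each comparison those that passed or else the 3 with the smallest p in each direction. Rps19 and the genes named where leaving out a library or the separation of libraries picked them fell outside that rule and were chosen after their values were seen. The class for other products was drawn up for Rps19bp1 and took in the retrocopy symbols once these were seen. Alternatives covered normalization, filter, pseudocount, variance trend, replicate block, each library left out, and the choice of interval per gene. A few listed genes are not reported here by name.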

Additional observations from a re-analysis of the deposited data

How the results depend on the processing

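Normalization, filter, variance trend, block and the choice of interval changed the direction of no member median. A pseudocount 4 times larger left 11024 intervals and 25 of the 83 genes, of which 24 were lower in KO, and 9 of their intervals were lower at an unadjusted p under 0.05; without the variance trend that count was 25 of 130. Over all intervals the KO minus WT calls ran from 0 without the trend to 1482 without KO PGE2 replicate 1, beside 71, and 0 member intervals passed in any setting but that last one, where 6 did. With intervals that overlap the gene only, Rps23rg1 and Rpl35a in WT PGE2 gave -0.35 and 0.20, and Rpl12 in KO minus WT vehicle gave -0.0917. Pairing was checked before the fits were compared: the replicate differences of the groups were not correlated across intervals (-0.0243 to 0.00966 over 15 pairs of groups). A shift of a whole library does not enter these correlations, so they cannot tell whether same-numbered libraries shared a culture or animal. With the replicate block 56 intervals passed in KO minus WT beside 71, and 4 for PGE2 in KO beside 0. In both, 0 of them were of the members.

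Leaving out 1 library at a time, the member medians ran from -0.0114 to 0.285 for AA in WT, -0.13 to 0.16 for PGE2 in WT, -0.17 to -0.10 for AA in KO, -0.416 to -0.0201 for PGE2 in KO, -0.32 to -0.17 for KO minus WT, -0.215 to 0.0503 in vehicle, -0.42 to -0.11 for the AA and -0.405 to -0.0579 for the PGE2 difference of changes. Genes lower in KO ran from 73 to 80, their intervals lower at an unadjusted p under 0.05 from 24 to 66, and member intervals past the threshold from 0 to 6 in KO minus WT and were 0 in the other 7 comparisons. Over all intervals, leaving out KO PGE2 replicate 1 gave 175 calls for PGE2 in KO and 30 for the PGE2 difference of changes, both 0 with all libraries. Signs turned for Rpl39l (KO AA, -0.0258 to 1.32), Rpl35 (KO PGE2, -0.0470 to 0.28), Rpl36 (KO PGE2, -0.13 to 0.35, and the PGE2 difference of changes, -0.13 to 0.48), Rpl22 (the same difference, -0.10 to 0.89), Rpl22l1 (KO minus WT, -0.0876 to 0.24) and Rpl34-ps1 (-0.0316 to 0.13). The cause was not tested.

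None of the 702 MACS2 intervals lay near a member, so that table gave no alternative value. With 2 libraries a group and an unknown depth, differences of the size seen here were not resolved at single genes.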

Other observations

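The 4 X-linked cytosolic ribosomal protein genes Rpl10, Rpl36a, Rpl39 and Rps4x lie outside the autosomal rule, and 3 had an interval; Rpl39 had none. Rpl36a, a large-subunit protein, had a score of 0.158 ± 0.0380 in WT and 0.0851 ± 0.0297 in KO (SD, n = 6 each), a log2 difference of -0.60 ± 0.18 (SE; limma, adjusted p = 0.290). Rpl10, a large-subunit protein added late in assembly, had 0.192 ± 0.0554 and 0.132 ± 0.0218 (-0.37 ± 0.14, adjusted p = 0.420), and Rps4x, in the small subunit, 0.166 ± 0.0484 and 0.121 ± 0.0459 (-0.34 ± 0.17, adjusted p = 0.570). All 3 had a negative difference and none passed.

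Rpl37 is the member nearest to Ptger4, the targeted gene, on chromosome 15, and its interval (chr15:5114547-5119776) also reaches Card6. Its scores were 0.176 to 0.262 in WT and 0.123 to 0.234 in KO, which overlap. The difference was -0.23 ± 0.12 (SE; limma, adjusted p = 0.591), near the member median of -0.26.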
